A study of Mus musculus with 16 samples.

Results

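The gene expression response to differentiation of C2C12 cells labelled MYOD-/- (deletion of Myod1) was measured by RNA-seq in 4 of the 16 libraries of the series. The 4 libraries are all those labelled MYOD-/- EV: 2 of differentiating cells (DM) and 2 of proliferating cells (GM), chosen by these labels alone. C2C12 is an established mouse myoblast line, and the labels give a C57BL/6 background, skeletal muscle as its source and postnatal day 21 as its age. The MYOD-/- line was made with CRISPR-Cas9 and picked by a screen of single cells, so the cells may descend from 1 clone. Which stretch of Myod1 was removed is not stated in the labels. EV cells were transfected with a control vector, and the other libraries hold the same line with a vector for the spliced transcript of the long noncoding RNA MUNC (MYOD-/- ov MUNC) or wild type C2C12 cells with either vector (WT EV, WT ov MUNC). RNA of the differentiating cells was taken at a stage that the design text names DM3. Poly(A) RNA was sequenced as paired reads of 75 bases from libraries that mark the strand.

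Myoblasts that leave the cell cycle switch on the basic helix-loop-helix factor myogenin and, with factors of the MEF2 family, the genes of the contractile apparatus. They then fuse into myotubes, in which calcium released from the sarcoplasmic reticulum drives contraction. MyoD is the factor best known for starting this programme and for binding E-box motifs such as CAGCTG at muscle genes, while Myf5, a close relative, is also made in myoblasts.

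Expression is given as CPM, the counts of a gene per 1e6 counts of its library after scaling by the trimmed mean of M-values, from estimated counts summed per gene, and levels of different genes are compared only in TPM, which also divides by transcript length. Library totals in units of 1e6 estimated counts were 49.9 and 58.8 in DM and 35.8 and 45.2 in GM, within a range of 35.8 to 108 over the 16 libraries. Whether the replicates were grown separately is not stated in the labels, and the p-values reflect only how far these libraries spread, which may be technical. The GM pair was the less alike. Of genes with a mean of at least 5 CPM, 96 of 9739 (0.986%) were 4-fold or more apart between the GM libraries, 34 higher and 62 lower in replicate 2, against 5 of 10107 (0.0495%) between the DM libraries. Counts that rest on GM replicate 2 are therefore given also without it. The splicing factor gene Zrsr1 took 7.2% of the counts in DM replicate 2 and 13% in GM replicate 2, against 0.0126% and 0.0111% in the replicates 1.

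**Figure D1:**
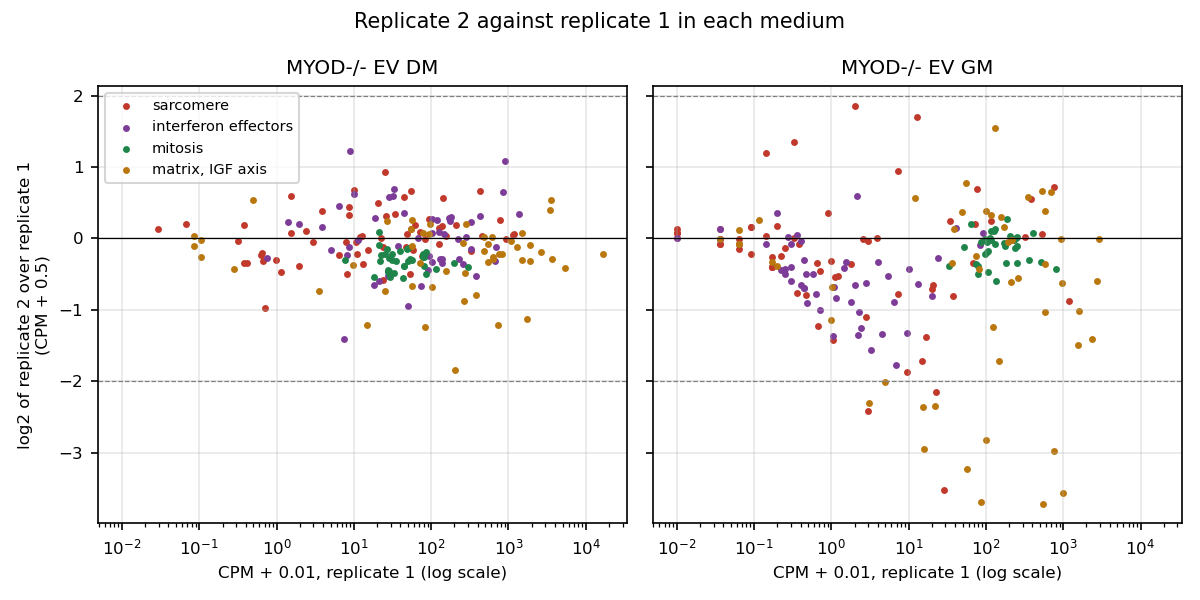
Log2 ratio of replicate 2 to replicate 1 (CPM + 0.5, vertical axis) against the level in replicate 1 (CPM + 0.01, log scale) in DM on the left and GM on the right, for the tested genes of the sarcomere, interferon effector, mitosis, and matrix and insulin-like growth factor lists. In GM, several matrix and sarcomere genes lie below the lower dashed line, which marks a 4-fold lower level in replicate 2.

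Myod1 itself was read in the libraries labelled MYOD-/-. It had 24.4 and 33.1 CPM in DM and 13.9 and 11.9 CPM in GM, from 476 to 1858 estimated counts per library. In the libraries labelled WT EV it had 0.143 and 0.0136 CPM in DM and 0.291 and 0.0191 CPM in GM. All 4 MYOD-/- EV libraries were thus higher than the 4 WT EV ones, which goes against the genotype labels of these EV libraries. Myod1 in the WT ov MUNC libraries is not given here. The reason was not tested, and the labels are used as given. Within the MYOD-/- labelled cells the DM to GM difference of Myod1 was 1.16 ± 0.54 on the log2 scale (SE), with an edgeR adjusted p of 0.108.

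Myoblast markers were read, and the 8 genes, all tested, summed to 1770 and 2140 CPM in DM against 829 and 540 CPM in GM. Chrna1, Itga7 and Ncam1 were higher in DM (37.5% of the 8, against 23.5% of all genes tested). Of these, Chrna1 and Itga7 were not called without DM replicate 2 or GM replicate 2. Defining markers of leukocytes were near 0: Ptprc, which encodes CD45, reached at most 0.107 CPM, and the 5 tested leukocyte markers summed to 2.2 and 1.39 CPM in DM against 2.09 and 5.16 CPM in GM. The 7 tested markers of fibroblast-like cells summed to 1220 and 518 CPM in DM, against 67.0 and 42.9 CPM in GM, and 5 of them were higher in DM (3 without GM replicate 2), while Tcf21 had no read in any of the 4 libraries. Their part in the results on matrix genes was not tested.

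Differentiation was tested with edgeR's quasi-likelihood test on 14972 genes, with 1 mean per group and a spread shared by all 16 libraries. At an adjusted p below 0.05, 6470 genes (43.2%) were called, 3522 higher in DM (23.5%) and 2948 lower (19.7%), and the median log2 change of all genes tested was 0.08. The limma test was run on log2(TPM + 1), without scaling by the trimmed mean of M-values. It called 5125 higher and 1947 lower and moved the median of all genes by 0.10. Without GM replicate 2, 4340 genes were called, 1977 higher and 2363 lower. A change of at least 2-fold was found for 2023 of the higher and 1309 of the lower genes, and one of at least 16-fold for 328 and 59. These shares are the background for the gene lists below. In bulk RNA, fewer cells of a type and less RNA per cell cannot be told apart.

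Among the regulators of myogenesis, myogenin was the most changed. Myog (chr1:134290004-134292548) had 22 and 24.2 CPM in DM against 0.321 and 0.125 CPM in GM. Both DM libraries were far above both GM libraries, and the log2 change was 6.69 ± 0.70 (edgeR adjusted p = 3.9e-05). Smyd1, a muscle methyltransferase needed for sarcomere assembly, had 34.0 and 36.2 CPM in DM against 2.38 and 0.501 CPM in GM. Mef2a, a MADS-box partner of the myogenic factors, had 264 and 217 CPM in DM against 127 and 95.3 CPM in GM, a log2 change of 1.11 ± 0.24 (edgeR adjusted p = 0.00353) that was no longer called without GM replicate 2. Both rose, and their groups did not overlap. Mef2c was at 0.0501 CPM or less in all 4 libraries, while Mef2d had 94.1 and 107 CPM in DM against 84.7 and 85.1 CPM in GM and was not called. Myf5 had 83.4 and 83.7 CPM in DM against 86.8 and 153 CPM in GM and was not called, and its GM libraries differed more from each other than from DM. The splicing regulator Rbfox2 rose by 1.11 ± 0.12, while Mbnl1, another splicing regulator, fell by 0.49 ± 0.17, a call lost when any of the 4 libraries was left out. Of the tested regulators 29.0% rose and 6.45% fell, against 23.5% and 19.7% of all genes. In all, 9 of 31 tested regulators rose and 2 fell (median 0.59), with 4 and 0 without GM replicate 2 and 20 and 0 by limma.

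The thick filament carries the motor of the sarcomere. Of its 25 genes, 16 passed the filter on low counts, 13 rose and 0 fell, with a median log2 change of 4.53, and 11 rose without GM replicate 2. The embryonic myosin heavy chain gene Myh3 (chr11:67078273-67102291) had 208 and 238 CPM in DM against 0.134 and 0.15 CPM in GM. In TPM, which allows a comparison between genes, Myh3 stood at 76.5 and 81.5 in DM, above the adult fast chain Myh1 with 2.96 and 1.9 TPM and Myh2 with 0.409 and 0.228 TPM. The other sarcomeric heavy chains of the list were lower still: Myh8, the perinatal form, had 0.0432 and 0.030 TPM in DM, and Myh7, the slow form, had 0.0209 and 0 TPM. Among the sarcomeric heavy chains of the list the embryonic form was thus the main one in both DM libraries. The light chain gene Myl1 had 76.9 and 64.9 CPM in DM against 0.348 and 0 CPM in GM, and the fast regulatory light chain Mylpf had 62.4 and 71.0 CPM in DM against 1.1 and 0.601 CPM in GM. Both rose without overlap, Mylpf by 6.30 ± 0.39 (edgeR adjusted p = 2.82e-06). Myom1, which encodes the M-band protein myomesin, had 10.5 and 10.1 CPM in DM against 0.321 and 0.326 CPM in GM. Myosin light chains of slow muscle and heart, Myl2 and Myl3, were at 0.0383 CPM or less throughout.

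Thin filament genes rose in 17 of 21 tested and fell in 0 (median 4.32), with 13 rising without GM replicate 2. The troponin genes have slow, fast and cardiac forms. The slow troponin I gene Tnni1 had 7.86 and 7.56 CPM in DM against 0.0535 and 0.0501 CPM in GM, and the fast form Tnni2 had 6.48 and 5.44 CPM in DM against 0.669 and 0 CPM in GM, a call lost without DM replicate 1, DM replicate 2 or GM replicate 2. Both slow and fast forms were thus read in DM. By TPM the fast troponin T gene Tnnt3, at 126 and 122 in DM, was near the slow form Tnnt1, at 144 and 146, whose call was lost without GM replicate 2, and the cardiac form Tnnt2 reached 97.1 and 135 TPM in DM against 23.3 and 72.9 TPM in GM without being called. Of the sarcomeric actins, skeletal Acta1 had 125 and 119 CPM in DM against 2.01 and 8.6 CPM in GM, and cardiac Actc1 had 54.7 and 87.1 CPM in DM against 0.91 and 1.3 CPM in GM. Neb, which encodes the giant thin filament ruler nebulin, had 15.3 and 13.6 CPM in DM against 0.375 and 0.326 CPM in GM. Tpm1, a tropomyosin and the thin filament gene with the highest level in DM, at 1710 and 1630 TPM in DM against 1430 and 736 TPM in GM, was not called (log2 change 0.36 ± 0.42).

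At the Z-disc 15 of 25 tested genes rose and 0 fell (median 1.77), and 11 rose without GM replicate 2. Ttn, which encodes the elastic protein titin, had 423 and 669 CPM in DM against 22.6 and 4.71 CPM in GM, a log2 change of 5.32 ± 1.01 (edgeR adjusted p = 0.0016). The alpha-actinin gene of fast fibres, Actn3, had 94.5 and 114 CPM in DM against 9.61 and 2.26 CPM in GM. Klhl41, which encodes a protein that stabilises nebulin, had 25.9 and 32.4 CPM in DM against 1.2 and 0.677 CPM in GM. All 3 separated the media, and for Ttn and Actn3 the lower GM library was replicate 2. Smpx had no read in GM and was at least 6.95-fold higher in DM, against a floor of 3 counts in each library. Genes usual in myoblasts moved less: Des, which encodes the intermediate filament protein desmin, had 22.6 and 22.7 CPM in DM against 16.6 and 6.09 CPM in GM and was not called. Ankrd1 had 1180 and 1230 CPM in DM against 758 and 1250 CPM in GM, where the groups overlap.

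**Figure D2:**
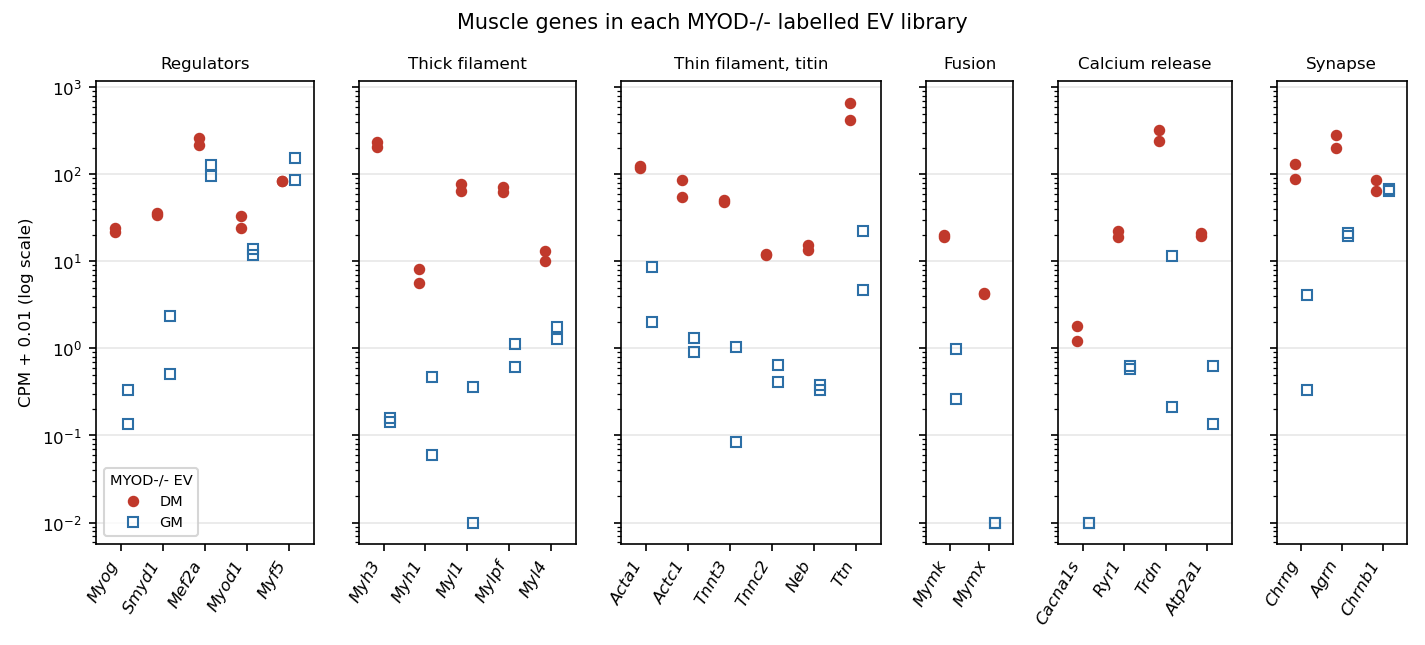
CPM + 0.01 (log scale) of 25 muscle genes in each MYOD-/- labelled EV library, with DM as filled circles left of GM as open squares. Most contractile genes sit above 10 CPM in DM and below 10 CPM in GM, while Mef2a, Myod1, Myf5 and Chrnb1 lie closer together in both media; marks at 0.01 are libraries with no read.

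The transcript in use differed between the media for 2 muscle genes. Of Tpm3, which encodes a slow and a cytoskeletal tropomyosin, a transcript of 2239 bases made up 39.6% and 43.7% of the gene's TPM in DM against 2.93% and 0.000419% in GM. A transcript of 2256 bases had 49.3% and 43.2% of it in DM against 84.7% and 84.9% in GM. The summed level of the gene was not called (log2 change -0.27 ± 0.11). Of the Z-disc gene Ldb3, a transcript of 5040 bases took 29.5% and 20.7% of the TPM in DM against 4.17% and 3.8% in GM. These 2 of 15 genes examined had a transcript whose share moved by at least 20 percentage points with groups that did not overlap, and no test was made. Pkm, known for its muscle splice form, had a smaller shift. Its main transcript stood at 88.0% and 87.5% in DM, below 94.5% and 93.3% in GM. The share of its other transcript was higher in DM by 6.13 percentage points, without overlap but under the limit of 20. Shares of transcripts that overlap depend on how reads were divided among them.

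The promoters of contractile and synaptic genes are shown because their letters bear on which factors these genes are known to respond to. Each run holds the 250 bases before the gene's start in the RefSeq table (build GRCm38.p6), 5′ to 3′ on the gene's strand, with the motif in capitals. Mylpf, at chr7:127211358-127211607 (plus strand), holds a CAGCTG E-box that starts 51 bases before the start, and the acetylcholine receptor gene Chrng, at chr1:87205561-87205810 (plus strand), holds 2 that start 155 and 132 bases before it. Ttn, at chr2:76982548-76982797 (minus strand), holds a MEF2 site (CTA, 4 bases of A or T, TAG) 166 bases before the start. Actc1, at chr2:114052876-114053125 (minus strand), holds a CArG box (CC, 6 bases of A or T, GG), the binding letters of serum response factor, 47 bases before the start.
Mylpf: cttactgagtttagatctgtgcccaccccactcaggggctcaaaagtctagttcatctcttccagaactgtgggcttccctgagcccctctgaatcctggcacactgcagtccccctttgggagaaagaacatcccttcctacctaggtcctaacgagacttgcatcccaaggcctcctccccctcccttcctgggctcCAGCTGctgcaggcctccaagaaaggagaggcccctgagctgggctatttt
Chrng: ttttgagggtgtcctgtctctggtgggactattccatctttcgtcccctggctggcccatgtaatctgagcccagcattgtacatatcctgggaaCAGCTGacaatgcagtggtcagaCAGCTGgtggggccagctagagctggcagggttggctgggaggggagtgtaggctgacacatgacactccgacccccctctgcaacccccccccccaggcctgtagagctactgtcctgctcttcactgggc
Ttn: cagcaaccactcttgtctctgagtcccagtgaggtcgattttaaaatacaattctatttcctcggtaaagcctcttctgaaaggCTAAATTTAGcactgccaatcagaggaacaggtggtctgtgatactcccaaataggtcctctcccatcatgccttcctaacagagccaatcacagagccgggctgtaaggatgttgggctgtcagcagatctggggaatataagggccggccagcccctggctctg
Actc1: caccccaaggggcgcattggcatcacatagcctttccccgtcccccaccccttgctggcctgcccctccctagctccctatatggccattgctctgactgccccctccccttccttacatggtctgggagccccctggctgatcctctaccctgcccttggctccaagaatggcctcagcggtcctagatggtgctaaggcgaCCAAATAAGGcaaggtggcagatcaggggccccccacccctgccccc

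Motifs were counted on both strands from 250 bases before to 50 bases after the start, for the 592 of 784 list members with a promoter in the table. Each count of promoters is one of genes. A gene with several promoters in the table counted once, as holding a motif if any of them did. CAGCTG, whose letters read the same on both strands, was in 8 of 23 promoters of thick filament genes (34.8%), 7 of 17 of thin filament genes (41.2%), 8 of 19 of Z-disc genes (42.1%) and 4 of 9 of synapse genes (44.4%). Other lists had more or fewer: it was in 6 of 17 chemokine promoters (35.3%), 4 of 12 of Notch genes (33.3%), 5 of 25 of myogenic regulators and 0 of 8 of dystrophin complex genes. It was in 18.3% of the 27025 genes with a promoter in the table and in 18.4% of the tested genes among them. The MEF2 site was in 5 of 19 Z-disc promoters (26.3%), those of Ttn, Myoz2, Synpo2, Synpo2l and Klhl41, against 0.636% of all promoters. Elsewhere among the muscle lists it was in 1 of 23 thick filament, 1 of 17 thin filament and 1 of 16 calcium promoters. Regulators had it in 2 of 25 and energy metabolism genes in 2 of 29. It was in 0 of 16 fusion, 0 of 9 synapse and 0 of 8 dystrophin complex promoters. The CArG box was in 3 of 17 thin filament promoters (17.6%), those of Acta1, Actc1 and Nebl, against 1.81% of all. Thick filament promoters held it in 4 of 23 and dystrophin complex promoters in 2 of 8. It was in 1 of 19 Z-disc, 1 of 16 fusion, 1 of 25 regulator and 2 of 29 energy metabolism promoters. Of calcium promoters 0 of 16 held it, and of synapse promoters 0 of 9. CACCTG, another E-box form counted apart from CAGCTG, was in 9 of 19 Z-disc promoters (47.4%) against 22.6% of all. The Myog and Myh3 windows held none of these 4 motifs. No test was made, since a match describes letters and not binding.

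Genes of cell fusion rose in 13 of 24 tested and fell in 2 (median 0.88), and 9 rose and 1 fell without GM replicate 2. Mymk, which encodes the membrane protein myomaker that fusion requires, had 20.3 and 19.1 CPM in DM against 0.964 and 0.251 CPM in GM. Its partner myomixer, Mymx, had 4.29 and 4.26 CPM in DM and no read in GM, at least 55.0-fold higher by the same floor. Both fusogens were thus clearly higher in both DM libraries. Adhesion genes gave a mixed picture. Cdh15, the M-cadherin gene, had 94.3 and 121 CPM in DM against 85.7 and 4.54 CPM in GM and was not called, as the GM libraries differed widely. Dysf, which encodes the membrane repair protein dysferlin, rose by 1.68 ± 0.24 (edgeR adjusted p = 0.000307). Ehd1, an endocytic gene, fell by 1.10 ± 0.26.

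Of 23 tested genes of calcium handling and excitation-contraction coupling, 14 rose and 1 fell (median 1.81), with 11 and 0 without GM replicate 2. The voltage sensor Cacna1s had 1.82 and 1.21 CPM in DM and no read in GM, at least 19.5-fold higher. The release channel it opens, Ryr1, had 19.1 and 22.2 CPM in DM against 0.616 and 0.576 CPM in GM. Atp2a1, the calcium pump of fast fibres, had 21.3 and 19.7 CPM in DM against 0.616 and 0.125 CPM in GM. All 3 parts of the cycle (sensor, channel and pump) were higher in DM without overlap. By TPM the housekeeping pump Atp2a2 still exceeded Atp2a1 in DM, with 222 and 221 TPM against 13.8 and 11.9 TPM. Trdn, which encodes the junctional protein triadin, had 326 and 242 CPM in DM against 11.5 and 0.2 CPM in GM, and its call (log2 change 5.61 ± 1.80, edgeR adjusted p = 0.0264) was lost without DM replicate 1, DM replicate 2 or GM replicate 2. Hrc, a calcium-binding protein of the reticulum, rose by 5.88 ± 0.57, and Casq2, the cardiac calsequestrin gene, by 3.34 ± 0.50.

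At the neuromuscular synapse 9 of 12 tested genes rose and 0 fell (median 1.83), but 4 rose without GM replicate 2 and 4 without DM replicate 2. Chrng, the gamma subunit of the fetal acetylcholine receptor, had 89.5 and 133 CPM in DM against 4.12 and 0.326 CPM in GM, a log2 change of 5.66 ± 1.21 (edgeR adjusted p = 0.00319). Chrne, which replaces it in the adult receptor, was at 0.0294 TPM or less in all 4 libraries. The receptor subunits therefore read as the fetal form, with Chrna1 at 275 and 292 TPM, Chrnd at 163 and 197 TPM (calls both lost without DM replicate 2 or GM replicate 2, and that of Chrnd also without GM replicate 1), Chrng at 111 and 153 TPM and Chrnb1 at 70.9 and 86.5 TPM in DM. Chrnb1, with 64.7 and 85.1 CPM in DM against 64.3 and 68.7 CPM in GM, was not called. Agrn, which encodes agrin, had 286 and 201 CPM in DM against 21.4 and 19.5 CPM in GM, and the agrin co-receptor Lrp4 had 177 and 167 CPM in DM against 38.8 and 10.4 CPM in GM. Rapsn, which clusters receptors, had 58.6 and 87.3 CPM in DM against 26.0 and 25.5 CPM in GM. These 3 rose, and each remained called when any 1 of the 4 libraries was left out.

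In the dystrophin complex 7 of 16 tested genes rose and 0 fell (median 1.21), with 4 rising without GM replicate 2 and 11 by limma. The sarcoglycan gene Sgca had 2.4 and 3.17 CPM in DM against 0.375 and 0.15 CPM in GM, without overlap. Dag1, which encodes dystroglycan, rose by 1.22 ± 0.17. Dmd was at 0.0959 CPM or less in all 4 libraries. Its homologue Utrn had 352 and 407 CPM in DM against 206 and 255 CPM in GM, so utrophin was the member of this pair that was read in quantity. Its call was lost without DM replicate 2, GM replicate 1 or GM replicate 2.

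Of 32 tested genes of energy metabolism 10 were higher and 8 lower (median 0.18). Both shares were only modestly above the 23.5% and 19.7% of all genes, and whether they exceeded them was not tested. Among those that rose, Pygm, muscle glycogen phosphorylase, had 7.73 and 11.1 CPM in DM against 0.642 and 0.501 CPM in GM, and Pgam2, the muscle phosphoglycerate mutase, had 6.25 and 7.46 CPM in DM against 1.45 and 1.58 CPM in GM. Ckm, muscle creatine kinase, had 3.58 and 3.85 CPM in DM against 0.0803 and 0.0251 CPM in GM. Among those that fell, Gapdh, a glycolytic enzyme of all cells, had 1320 and 1680 CPM in DM against 3200 and 3560 CPM in GM, a log2 change of -1.17 ± 0.16 (edgeR adjusted p = 0.000191), and Ldha, lactate dehydrogenase A, had 398 and 484 CPM in DM against 1580 and 1060 CPM in GM. Pgam1, the general mutase, fell by 1.59 ± 0.19 and Pkm by 1.38 ± 0.19. Eno3, which encodes the muscle enolase, fell by 1.5 ± 0.16. Slc2a1, the basal glucose transporter, fell by 0.94 ± 0.18. Of 37 tested nuclear genes of the respiratory chain 3 were higher (8.11%) and 4 lower (10.8%), both shares below those of all genes, with a median of -0.03. By limma 13 were higher and 1 lower. The count of higher genes fell to 1 without DM replicate 2, GM replicate 1 or GM replicate 2, and that of lower genes to 0 without DM replicate 1 and to 1 without DM replicate 2 or GM replicate 1.

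Cell cycle genes fell as a body. All 36 tested mitosis genes were lower in DM (median -1.83), also without any 1 of the 4 libraries, against a background of 19.7% of all genes. Cdc20, an activator of the anaphase-promoting complex, had 39.2 and 34.7 CPM in DM against 186 and 225 CPM in GM. Aurka, a spindle kinase, had 21.8 and 17.5 CPM in DM against 112 and 113 CPM in GM, and Ccnb1, cyclin B1, had 44.1 and 33.6 CPM in DM against 205 and 211 CPM in GM. Each pair of media was well apart, with log2 changes of -2.47 ± 0.25, -2.52 ± 0.20 and -2.42 ± 0.21. The smallest change of the list was that of the proliferation marker Mki67, with 195 and 153 CPM in DM against 519 and 414 CPM in GM. Transcripts of dividing cells were therefore lower in DM and still read in both DM libraries.

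DNA replication genes fell in 37 of 40 tested and rose in 0 (median -1.25), with 36 lower without GM replicate 2. Orc1, the subunit of the origin recognition complex, had 5.12 and 3.25 CPM in DM against 16.5 and 24.3 CPM in GM, a log2 change of -2.29 ± 0.26 (edgeR adjusted p = 5.95e-05). Mcm2, of the replicative helicase, had 63.9 and 58.3 CPM in DM against 157 and 208 CPM in GM, and Tk1, thymidine kinase, had 30.7 and 28.7 CPM in DM against 124 and 153 CPM in GM. E2f1, a factor that drives these genes, had 40.6 and 37.8 CPM in DM against 42.1 and 51.9 CPM in GM and was not called, and neither were E2f2 and Rfc3. The median fall was smaller than that of mitosis genes, and this difference between lists was not tested.

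The promoters of Cdc20 and Orc1 are shown as examples of the 2 groups. Cdc20, at chr4:118437344-118437593 (minus strand), holds TTTGAA, the core of the cell cycle homology region, 18 bases before the start. Orc1, at chr4:108579204-108579453 (plus strand), holds an E2F site (TTT, then 2 bases that are each C or G, then CGC) 27 bases before the start on the other strand. The capitals mark these letters, from the same RefSeq build.
Cdc20: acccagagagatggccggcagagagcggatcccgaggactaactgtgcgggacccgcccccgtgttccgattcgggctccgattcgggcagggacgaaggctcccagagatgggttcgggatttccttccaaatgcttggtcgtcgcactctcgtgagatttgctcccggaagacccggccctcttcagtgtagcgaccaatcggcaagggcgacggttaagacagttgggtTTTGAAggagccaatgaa
Orc1: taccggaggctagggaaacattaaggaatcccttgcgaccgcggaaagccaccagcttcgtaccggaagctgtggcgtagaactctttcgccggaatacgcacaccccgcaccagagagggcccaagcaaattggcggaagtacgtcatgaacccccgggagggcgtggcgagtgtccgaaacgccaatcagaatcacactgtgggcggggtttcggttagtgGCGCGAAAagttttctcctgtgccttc
TTTGAA was in 21 of 30 mitosis promoters (70.0%) and 7 of 34 replication promoters (20.6%), against 20.2% of all promoters and 15.2% of those of tested genes. The E2F site went the other way, in 1 of 30 mitosis promoters (3.33%) and 16 of 34 replication promoters (47.1%), against 2.6% of all and 4.4% of those of tested genes.

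Cyclin-dependent kinase inhibitors, pocket proteins and D cyclins brake or drive entry into the cycle. Their genes went both ways (median -0.36), with 3 of 14 tested higher (21.4%) and 6 lower (42.9%), against 23.5% and 19.7% of all genes. The 3 became 1 without DM replicate 2 and 0 without GM replicate 2, and the 6 became 1, 2 and 3 without DM replicate 1, DM replicate 2 and GM replicate 1, and 1 by limma. Cdkn1a, which encodes the cyclin-dependent kinase inhibitor p21, had 206 and 268 CPM in DM against 153 and 123 CPM in GM, a log2 change of 0.78 ± 0.21 whose call was lost without DM replicate 2 or GM replicate 2. Ccnd1, cyclin D1, had 63.5 and 91.1 CPM in DM against 296 and 421 CPM in GM. It fell by 2.21 ± 0.26, and Ccnd3, the cyclin D of differentiating muscle, rose by 0.57 ± 0.15, a call also lost without DM replicate 2 or GM replicate 2. Cdkn2a, Cdkn2b and Cdkn1c had no reads in the 4 libraries.

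Inhibitors of myogenesis rose in 4 and fell in 5 of 18 tested (median 0.05), with 1 rising without GM replicate 2 and 3 falling without DM replicate 1, DM replicate 2 or GM replicate 2, or by limma. Id2, an Id protein that sequesters the partners of myogenic factors, had 2.4 and 2.32 CPM in DM against 17.3 and 72.1 CPM in GM, a log2 change of -4.24 ± 0.88 (edgeR adjusted p = 0.00256). Id1 had 6.02 and 5.58 CPM in DM against 7.71 and 77.5 CPM in GM and was not called, so the high value was that of 1 GM library. Twist2 fell by 2.49 ± 0.61, a call lost without DM replicate 1 or GM replicate 2, and Zeb2 rose by 0.88 ± 0.12. Of the tested inhibitors 22.2% rose and 27.8% fell, against 23.5% and 19.7% of all genes. In the Notch pathway, which keeps muscle progenitors undifferentiated, 5 of 15 tested genes rose and 2 fell (median 0.02), with 2 rising without DM replicate 1 and 3 without GM replicate 2. None of the 15 fell without DM replicate 1, DM replicate 2 or GM replicate 2, or by limma. The ligand Dll1 had 17.9 and 21.0 CPM in DM against 1.55 and 2.03 CPM in GM, and the receptor Notch2 had 477 and 485 CPM in DM against 234 and 182 CPM in GM. Notch3 had 205 and 222 CPM in DM against 67.2 and 4.56 CPM in GM and was not called. The target gene Hes1 had 8.74 and 7.01 CPM in DM against 17.1 and 8.07 CPM in GM, also not called. Of the tested Notch genes 33.3% rose and 13.3% fell, beside the same shares of all genes. Of markers of satellite and reserve cells, 6 of 14 tested rose and 1 fell (median 1.52), among them Sdc3, with 136 and 61.1 CPM in DM against 7.36 and 14.5 CPM in GM. Pax7, the defining factor of satellite cells, was at 0.0575 CPM or less.

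The interferon system rose together with the muscle genes. Cells sense foreign or misplaced nucleic acids, make interferon beta and, through its receptor and the STAT and IRF factors, switch on a set of antiviral genes that in turn raise antigen presentation. Of 20 tested sensors and adaptors, 15 rose and 2 fell (median 1.93), with 14 and 1 without GM replicate 2. Ddx58, which encodes the RNA sensor RIG-I, had 409 and 484 CPM in DM against 20.6 and 7.09 CPM in GM, and Ifih1, which encodes MDA5, had 116 and 115 CPM in DM against 2.44 and 0.877 CPM in GM. Tlr3, a receptor for double-stranded RNA, had 21.6 and 24.3 CPM in DM against 1.87 and 0.802 CPM in GM. The groups of these 3 RNA sensors did not overlap. Sting1, the adaptor for DNA sensing, rose by 1.44 ± 0.24, while its partner sensor Cgas fell by 0.64 ± 0.21, a call lost without DM replicate 1, DM replicate 2 or GM replicate 2. The adaptor of RIG-I, Mavs, had 24.4 and 28.9 CPM in DM against 27.4 and 35.3 CPM in GM and was not called.

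The ligand was barely read. Ifnb1 had 0.249 and 0.66 CPM in DM against 0.0268 and 0.0251 CPM in GM, from 1 count in each GM library. The receptor genes rose little, Ifnar1 by 0.56 ± 0.11 and Ifnar2 by 0.48 ± 0.11. Irf9, the DNA-binding partner of the STAT factors, had 76.0 and 69.4 CPM in DM against 3.61 and 3.63 CPM in GM. The factor Irf7, itself induced by interferon, had 186 and 180 CPM in DM against 0.616 and 0.376 CPM in GM. Both were far apart between the media, Irf9 by 4.33 ± 0.20 (edgeR adjusted p = 7.36e-07). Irf3, the factor that acts first, had 13.6 and 14 CPM in DM against 15.1 and 18.2 CPM in GM and was not called. Usp18, an inhibitor of the receptor, had 142 and 153 CPM in DM against 0.134 and 0.15 CPM in GM. In this list of receptors, STAT and IRF genes, 14 of 21 rose and 0 fell (median 0.67), with 11 rising without GM replicate 2.

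Effectors were the list with the highest median change of those examined. Of 51 tested, 49 rose and 0 fell (median 6.32), and 47 rose without GM replicate 2. Ifit3, which binds viral RNA with its relatives, had 1370 and 1740 CPM in DM against 1.55 and 1.13 CPM in GM, a log2 change of 10.18 ± 0.46 (edgeR adjusted p = 7.36e-07). Isg15, a ubiquitin-like protein, had 280 and 285 CPM in DM against 1.15 and 0.426 CPM in GM, and Ifit1 had 838 and 1320 CPM in DM against 4.58 and 1.5 CPM in GM. No DM value of these genes came near a GM value. Mx2, a dynamin-like antiviral gene, had 44.9 and 57.8 CPM in DM and no read in GM, at least 661-fold higher by the floor. Its relative Mx1 had 6.44 and 9.04 CPM in DM against 0.187 and 0.376 CPM in GM. The membrane protein gene Ifitm3 was already read in GM, with 690 and 633 CPM in DM against 91.1 and 96.4 CPM in GM. Not called were Ifitm1 and Slfn2, the second with 0.748 and 0.535 CPM in DM against 0.294 and 0.251 CPM in GM. Near-identical copies such as Ifit3 and Ifit3b or Oas1a and Oas1g share reads, and their separate values are uncertain. The tested effectors summed to 14300 and 13700 TPM in DM, against 912 and 791 TPM in GM.

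**Figure D3:**
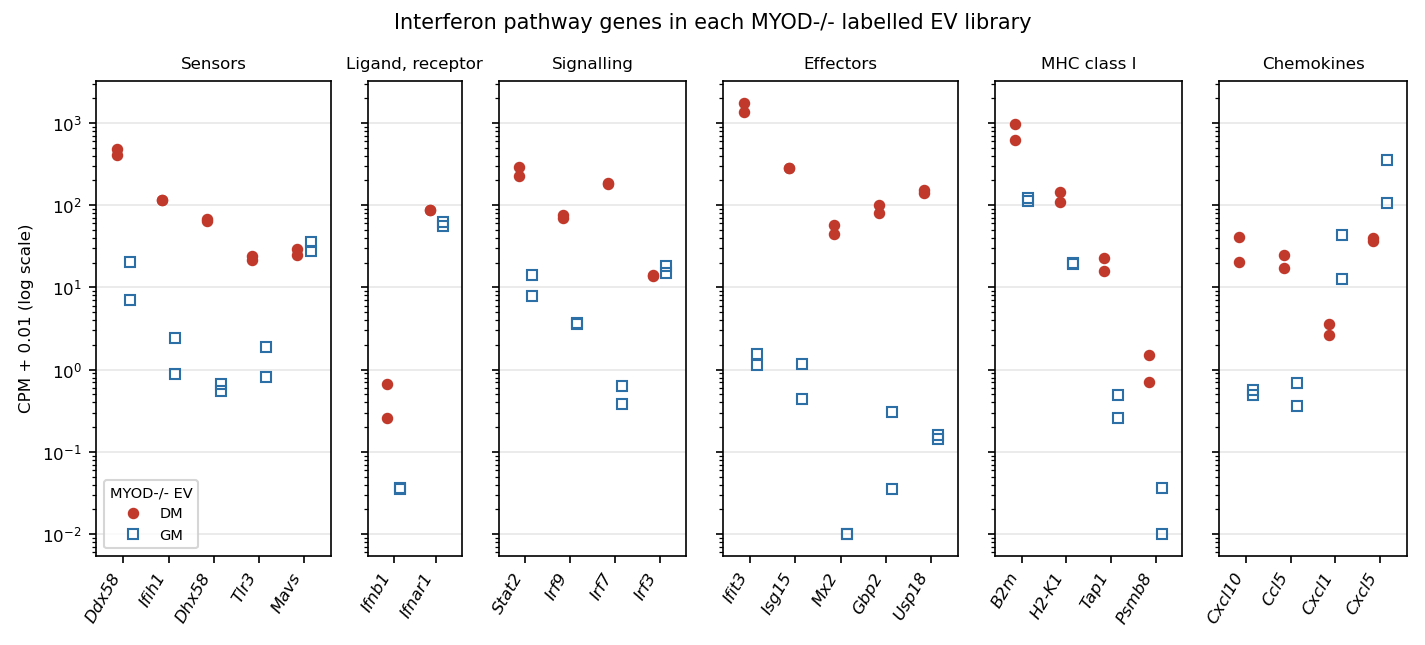
CPM + 0.01 (log scale) of 24 interferon pathway and chemokine genes in each MYOD-/- labelled EV library, with DM as filled circles left of GM as open squares. Stat2, Irf7, Irf9 and effector genes lie far higher in DM, Mavs and Irf3 lie close together, and Cxcl1 and Cxcl5 are lower in DM; marks at 0.01 are libraries with no read.

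The promoters of Ifit3 and Isg15 are shown because effectors are known to be driven through repeats of GAAA (GAAA, 2 bases of any kind, GAAA). Ifit3, at chr19:34583279-34583528 (plus strand), holds the repeat on the other strand at 156 and 122 bases before the start. Isg15, at chr4:156200819-156201068 (minus strand), holds 3 overlapping matches that start between 78 and 66 bases before the start. Capitals mark the matches, which read as TTTC in Ifit3, where they lie on the other strand.
Ifit3: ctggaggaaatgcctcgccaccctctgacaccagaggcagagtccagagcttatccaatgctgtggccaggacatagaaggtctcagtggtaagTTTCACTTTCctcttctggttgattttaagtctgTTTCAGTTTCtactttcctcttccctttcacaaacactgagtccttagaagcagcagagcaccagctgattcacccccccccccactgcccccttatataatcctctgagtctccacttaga
Isg15: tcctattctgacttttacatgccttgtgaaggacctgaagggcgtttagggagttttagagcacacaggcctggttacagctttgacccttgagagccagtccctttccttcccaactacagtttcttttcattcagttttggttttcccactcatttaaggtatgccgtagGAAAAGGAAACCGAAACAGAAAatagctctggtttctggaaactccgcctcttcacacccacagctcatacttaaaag
The repeat was in 23 of 41 effector promoters (56.1%), 5 of 15 promoters of sensors (33.3%), 4 of 14 promoters of class I presentation genes (28.6%) and 3 of 19 of the receptor, STAT and IRF list (15.8%). It was in 3.99% of all promoters and 3.74% of those of tested genes, and in 6 of 37 ribosomal protein promoters (16.2%).

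Antigen presentation by MHC class I followed. Of 17 tested genes 16 rose and 0 fell (median 2.76), and 16 rose also without each of the 4 libraries. B2m, the invariant light chain, had 978 and 620 CPM in DM against 123 and 113 CPM in GM. The heavy chain H2-K1 had 146 and 108 CPM in DM against 19.3 and 19.5 CPM in GM, and Tap1, of the peptide transporter, had 15.6 and 22.5 CPM in DM against 0.482 and 0.251 CPM in GM. DM replicate 1 was the higher for both parts of the class I dimer. The immunoproteasome subunit Psmb8 had 1.51 and 0.696 CPM in DM against 0.0268 and 0 CPM in GM, while Psmb10 had 92.7 and 117 CPM in DM against 13 and 11.7 CPM in GM. H2-M3 had 10.3 and 12.4 CPM in DM against 5.14 and 9.2 CPM in GM and was not called.

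Chemokines went both ways, with 7 of 19 tested higher and 4 lower (median 1.18), and 2 lower without GM replicate 2 or by limma. Interferon-inducible Cxcl10 had 20.1 and 41.3 CPM in DM against 0.482 and 0.551 CPM in GM, and Ccl5 had 17.0 and 24.6 CPM in DM against 0.669 and 0.351 CPM in GM. The neutrophil attractants fell: Cxcl1 had 3.55 and 2.64 CPM in DM against 12.6 and 43.3 CPM in GM, and Cxcl5 had 39.8 and 36.8 CPM in DM against 106 and 354 CPM in GM. Both DM libraries were below both GM libraries, with the higher GM value in replicate 2. In the whole list 36.8% were higher and 21.1% lower, against 23.5% and 19.7% of all genes.

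Ribosomal protein genes fell in 46 of 49 tested and rose in 0 (median -0.77), with 43 lower without GM replicate 2 and 33 without DM replicate 1. The listed genes summed to 83100 and 87800 TPM in DM against 132000 and 121000 TPM in GM. Rps2, of the small subunit, had 888 and 996 CPM in DM against 2330 and 2740 CPM in GM. Ncl and Npm1, which encode nucleolar proteins of ribosome assembly, fell by 1.77 ± 0.16 and 1.63 ± 0.18. Genes of the integrated stress response fell in 13 of 25 and rose in 1 (median -0.73), with 8 falling without DM replicate 1. Atf4, its transcription factor, had 180 and 170 CPM in DM against 361 and 355 CPM in GM, and Asns, the asparagine synthetase it controls, had 47.3 and 48.1 CPM in DM against 192 and 131 CPM in GM. Also among the 13 were Phgdh, an enzyme of serine synthesis, with a log2 change of -1.88 ± 0.29, and Shmt2, which makes glycine from serine in mitochondria, with one of -1.83 ± 0.27. Ddit3, which encodes CHOP, had 48.1 and 45.4 CPM in DM against 29.4 and 43.1 CPM in GM and was not called. Chaperones of the endoplasmic reticulum rose in 1 and fell in 7 of 18 (median -0.35), with 2, 1 and 3 falling without DM replicate 1, DM replicate 2 and GM replicate 1, 1 by limma, and with Hspa5 at 814 and 640 CPM in DM against 1250 and 905 CPM in GM, not called.

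Genes of protein breakdown went up, with 16 of 26 tested FoxO, atrophy and autophagy genes higher and 2 lower (median 0.83), and 13 and 1 without GM replicate 2. Fbxo32, which encodes the muscle ubiquitin ligase atrogin-1, had 323 and 287 CPM in DM against 22.3 and 12.2 CPM in GM, a log2 change of 4.15 ± 0.34 (edgeR adjusted p = 1.01e-05). Trim63, the other atrophy ligase, had 2.01 and 2.41 CPM in DM against 0.161 and 0.0501 CPM in GM. Txnip, a FoxO target, had 131 and 128 CPM in DM against 9.1 and 16.5 CPM in GM. Of autophagy genes Map1lc3a, an LC3 gene, rose by 2.85 ± 0.43 and the kinase gene Ulk1 by 1.14 ± 0.14. The cargo receptor Sqstm1 had 495 and 592 CPM in DM against 513 and 643 CPM in GM. Of the tested genes of sterol synthesis 20.8% rose, against 23.5% of all genes. Sterol synthesis depended on the GM library used: 5 of 24 genes rose (median 0.63), 1 without GM replicate 2, 2 without DM replicate 2, 13 without GM replicate 1, 8 by DESeq2 and 11 by limma.

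The extracellular matrix rose in part, with 14 of 37 tested interstitial genes higher and 3 lower (median 1.00), and 9 and 1 without GM replicate 2 and 1 lower without DM replicate 2. Fn1, fibronectin, had 16800 and 14500 CPM in DM against 2890 and 2870 CPM in GM, the largest gain in CPM of any called gene. The small proteoglycan gene Dcn had 742 and 320 CPM in DM against 4.95 and 0.852 CPM in GM, and Lum, a relative, had 201 and 55.5 CPM in DM against 0.187 and 0.0251 CPM in GM. Both were higher in DM replicate 1. The fibrillar collagens were not called: Col1a1 had 1890 and 1520 CPM in DM against 760 and 96.3 CPM in GM, and Col3a1 had 5450 and 4100 CPM in DM against 2360 and 889 CPM in GM, with the GM libraries several-fold apart. Mmp2, a matrix protease, rose by 2.99 ± 0.66, and Timp1, a protease inhibitor, fell by 1.09 ± 0.18. Dcn and Lum are also among the fibroblast-like markers given above. Of 20 tested genes of the basement membrane and integrins, 9 rose and 0 fell (median 0.66), with 5 rising without GM replicate 2 and 14 by limma. Hspg2, which encodes perlecan, had 1580 and 1710 CPM in DM against 645 and 759 CPM in GM, and Itga7, the laminin receptor of muscle, had 680 and 983 CPM in DM against 331 and 187 CPM in GM. Among TGF-beta and smooth muscle genes 8 of 25 rose and 2 fell (median 0.85), with 5 rising without DM replicate 1, DM replicate 2 or GM replicate 2. Tgfb3 rose by 1.94 ± 0.24, and smooth muscle actin, Acta2, had 1920 and 2130 CPM in DM against 881 and 696 CPM in GM, a call lost without each library of the 4 in turn. Tagln, another smooth muscle gene, had 69.1 and 56.0 CPM in DM against 34.4 and 31.6 CPM in GM and was not called. In this TGF-beta and smooth muscle list 32.0% rose and 8.0% fell, against 23.5% and 19.7% of all genes.

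In the insulin-like growth factor axis, which promotes muscle differentiation, 8 of 14 tested genes rose and 0 fell (median 1.65), with 4 rising without DM replicate 1 or GM replicate 2 and 5 without DM replicate 2. The receptors were steady between replicates: Igf2r had 606 and 614 CPM in DM against 215 and 212 CPM in GM, and Insr had 93.6 and 97.8 CPM in DM against 38.4 and 42.1 CPM in GM. The ligand Igf2 had 9.82 and 7.44 CPM in DM against 0.99 and 0.175 CPM in GM, a log2 change of 3.90 ± 1.27 whose call was lost without DM replicate 1, DM replicate 2 or GM replicate 2. The binding protein gene Igfbp5 had 3590 and 5240 CPM in DM against 540 and 40.7 CPM in GM, and the imprinted noncoding RNA H19 had 1920 and 1800 CPM in DM against 1000 and 84.1 CPM in GM. Neither was called, and in both the GM libraries were over 4-fold apart.

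**Figure D4:**
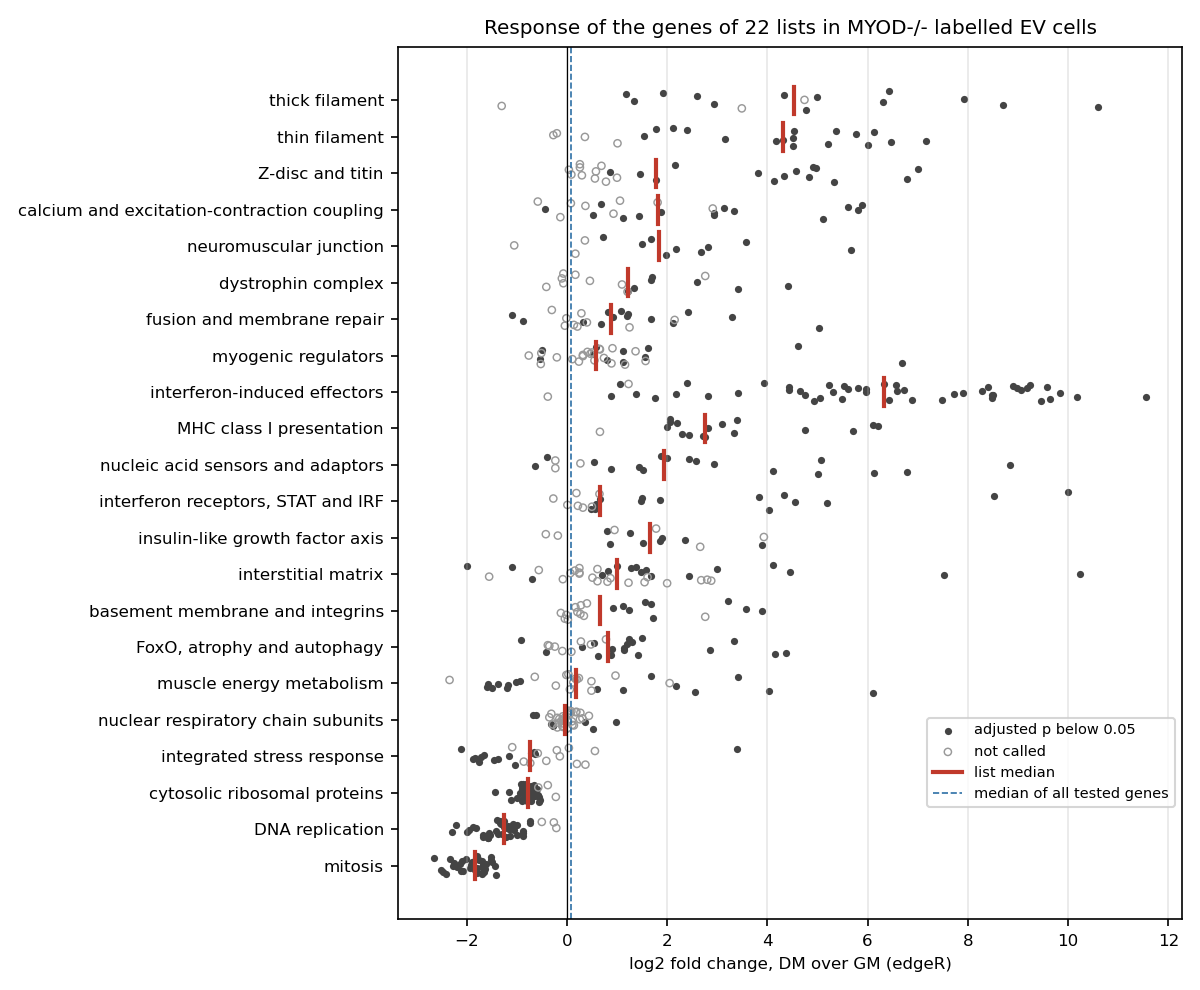
Log2 change, DM over GM, of each tested gene in 22 lists; filled points were called, open points were not, red bars are list medians, and the dashed line is the median of all tested genes at 0.08. Interferon effectors and filament genes lie farthest to the right and mitosis genes to the left; 6 genes with no read in both GM libraries are not drawn.

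Over all called genes with a mean of at least 5 CPM, the 15 largest gains by log2 change were mostly interferon genes, with Myh3 and Lum among them. The 15 largest falls included 3 genes of the prolactin family of placenta, Prl2c2, Prl2c3 and Prl2c5, which are near-identical and may share reads. Prl2c2 had 3.62 and 3.53 CPM in DM against 158 and 851 CPM in GM. Styk1, a kinase-like gene, fell by 4.45 ± 0.36, and Ptgs2, which encodes cyclooxygenase-2, had 14.9 and 12.3 CPM in DM against 23.6 and 538 CPM in GM, a call lost without DM replicate 1, DM replicate 2 or GM replicate 2. GM replicate 2 was the higher for both Prl2c2 and Ptgs2. By the difference in mean CPM the 10 largest gains included Thbs1, Sparc, Fstl1 and Nes besides Fn1. These 4 lost the call when DM replicate 1 was left out, Sparc, Fstl1 and Thbs1 also without GM replicate 2, Thbs1 and Nes without DM replicate 2, and Nes without GM replicate 1. The 10 largest losses included Ftl1, Hsp90ab1, Tuba1b, Hspa8 and Pabpc1. Ftl1, ferritin light chain, fell by 1.76 ± 0.22.

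The response was next set against that of WT EV cells, by the difference of the 2 log2 changes in the same model. It differed for 387 of 14972 genes (2.58%), with 249 (1.66%) more positive in MYOD-/- labelled cells and 138 (0.922%) more negative, and 304 of the 387 were also called between DM and GM. Given the Myod1 reads above, the direction holds for the labels. Muscle structure lists stood on the positive side. The difference was called for 4 of 16 thick filament, 6 of 21 thin filament, 3 of 25 Z-disc and 4 of 23 calcium genes, each time more positive, with median differences of 3.34, 2.90, 1.48 and 0.60. In WT EV libraries Mylpf had 1.83 and 1.45 CPM in DM against 0.938 and 0.801 CPM in GM, and the responses differed by 5.38 ± 0.50 (edgeR adjusted p = 0.000956). Pygm, Myl4 and Ckb also had called differences, of 5.40, 3.87 and 3.70. Myog, by contrast, had a difference of 2.0 with an adjusted p of 0.559, and Mymk one of -1.54 with an adjusted p of 0.77.

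In the interferon lists the median difference was -0.12 for sensors and -0.01 for receptor, STAT and IRF genes. Of 51 effectors, 2 had a more positive response (Ifit1 by 2.95 and Ifitm3 by 0.99) and 2 a more negative one (Mx1 by -3.40 and Slfn2 by -5.99), with a median difference of 0.13. Of 17 class I presentation genes 0 were more positive and 2 more negative (H2-M3 by -2.11 and H2-Q4 by -1.76), with a median difference of -0.52. Mitosis genes were called in 0 of 36 (median difference 0.01), and replication genes in 2 of 40, Rrm1 and Cdc6, both falling less in MYOD-/- labelled cells. Of 25 stress response genes, 5 had a more negative response, Ddit3, Chac1, Nupr1, Atf5 and Sars, at a median difference of -1.19. On the negative side, Ly6c1, a surface protein gene induced by interferon, had 46.4 and 35.1 CPM in DM against 20.3 and 17.4 CPM in GM. In WT EV libraries it had 706 and 750 CPM in DM against 16.5 and 18.1 CPM in GM, a difference in response of -4.28 ± 0.45 (edgeR adjusted p = 0.00163). Both responses were thus upward, and that of the MYOD-/- labelled cells was the smaller. A p that misses the threshold does not show that the responses were equal. The number of calls fell to 66 without WT EV DM replicate 2 and to 71, 91 and 74 without MYOD-/- DM replicate 1, MYOD-/- GM replicate 2 and WT EV GM replicate 2, and to 96 without MYOD-/- DM replicate 2.

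**Figure D5:**
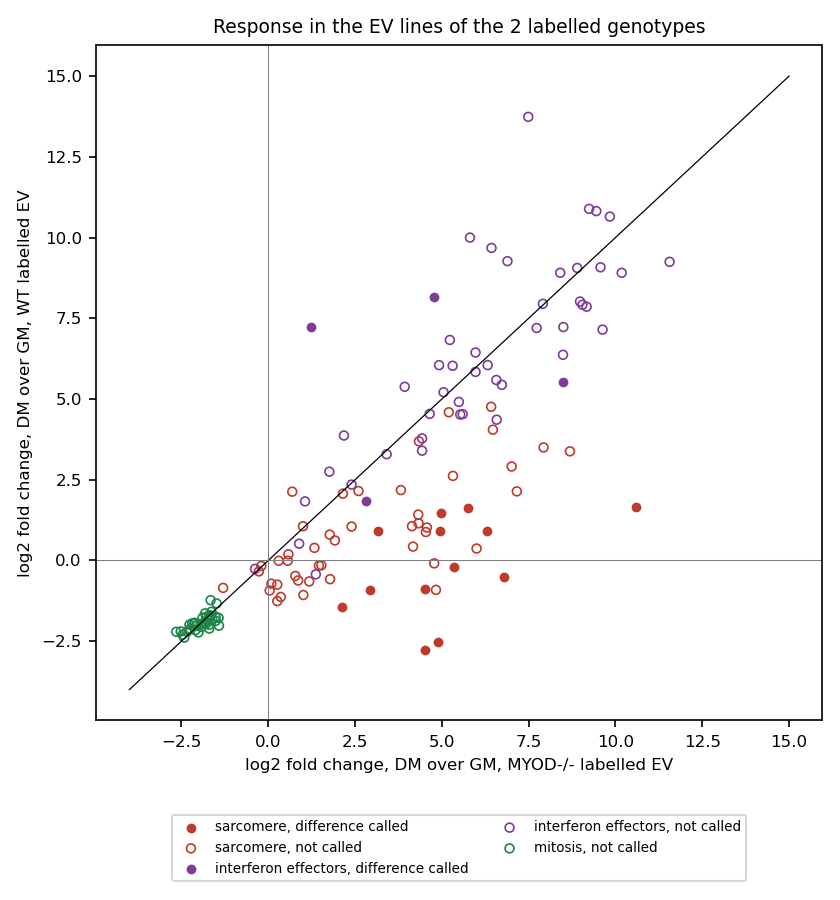
Log2 change, DM over GM, of sarcomere, interferon effector and mitosis genes in MYOD-/- labelled EV cells (horizontal axis) and WT labelled EV cells (vertical axis), with filled points where the difference was called and a line of equal change. Called sarcomere genes lie below the line, mitosis genes lie close to it, and effectors lie on both sides; 6 genes with no read in both libraries of a group are not drawn.

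Against the response of MYOD-/- cells with the MUNC vector, which share the genotype label, 0 genes were called by edgeR (0.0%). An unadjusted p under 0.05 was reached by 114 genes (0.761%), DESeq2 called 0 and limma 1. With no true difference, a calibrated test would reach that p for a fraction of about 0.05 of the genes. The edgeR test was thus conservative for this comparison, for a reason that was not tested. Its 0 calls therefore do not show that the responses were equal. For Myog the difference of the responses was -0.13 ± 0.96 and for Ifit3 0.16 ± 0.48.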

How the data were processed

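RNA was measured in 16 libraries, 2 in each of 8 groups (WT or MYOD-/- C2C12 cells, EV or MUNC vector, DM or GM), and 4 are described here. Per the file headers, the authors deposited for each library an estimated count, a TPM value and an effective length per RefSeq transcript. Per the submitters' processing notes bcl2fastq, kallisto and mm10 were used; their versions and the strand setting were not given in the sources used. Of 35818 transcripts, 35492 were given a gene through RefSeq GRCm38.p6 and 188 through GENCODE, and 138 without a symbol (0.319 to 0.413% of the counts of the 4 libraries) were left out, which left 24497 genes. Mitochondrially encoded genes were not in the tables (0). Coordinates are of GRCm38. TPM and CPM of near-identical genes (Oas1a and Oas1g, Ifit3 and Ifit3b, the Prl2c genes) depend on how shared reads were divided.

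Estimated counts were summed per gene and rounded. Genes were kept by edgeR's filterByExpr (minimum count 10), scaled by the trimmed mean of M-values, and tested with glmQLFit and glmQLFTest with Benjamini-Hochberg adjustment, in 1 model of 8 group means (8 residual degrees of freedom, prior 3.19, common dispersion 0.0474). The difference of 2 responses is a contrast of the same model. Versions were R 4.3.3, edgeR 4.0.16, limma 3.58.1 and DESeq2 1.42.0. A replicate pair correlated at 0.992 in DM and 0.978 in GM, and its counts differed by far more than sampling alone gives (chi-square over its degrees of freedom 306 and 477). In simulated counts for the comparison of DM with GM (14789 genes, 200 changed), 54% of the 2-fold and 91% of the 4-fold changes were recovered, and 5.23% of 153 calls were false. The simulation changed a far smaller share of genes than the 43.2% called here, all with a mean of at least 5 CPM. It also drew the libraries independently, so its rates may not hold for these data. For a gene without reads in both GM libraries the text gives a bound in place of the fitted fold, against a floor of 3 counts in each library. Its fit still entered the counts of called genes and the list medians. Those medians were the same with the bound in its place. The floor covers counting error only. The SE of a log2 change was derived as its absolute value over the square root of the test's F statistic. It includes the spread between libraries but is not the standard error of the fitted coefficient itself.

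The members and gene lists were chosen with earlier results of these data known. Outside the lists, genes were named by rule: the 15 largest log2 changes and the 10 largest differences in CPM each way among called genes with a mean of at least 5 CPM, and the 5 largest differences from WT EV each way. Utrn, Zrsr1 and genes cited for their promoter motif were chosen after their values were seen. Alternatives were the 4 libraries alone, a filter at 5 CPM, no filter, DESeq2, limma on log2(TPM + 1) and relative log expression scaling. Others were an offset for effective length, a replicate block, a threshold of 0.01, leaving out Zrsr1 and leaving out each library.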

Additional observations from a re-analysis of the deposited data

Results flagged for a closer look

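The response to differentiation, as the log2 change of DM over GM in MYOD-/- labelled EV cells minus that in WT labelled EV cells, differed by edgeR's test of the difference itself (adjusted p under 0.05) for 37 of the genes named above. No outlying sample could be sought in groups of 2 libraries.

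Sarcomere genes were more positive in MYOD-/- labelled cells, with differences of 8.94 for Myh3, 7.30 for Acta1, 7.29 for Myoz2, 5.57 for Neb, 5.38 for Mylpf, 4.04 for Klhl41, 3.87 for Myl4 and 3.51 for Myom1. Calcium genes had 5.22 for Casq2, 4.57 for Hrc and 2.92 for Ryr1. Other muscle and adhesion genes had 5.40 for Pygm, 3.70 for Ckb, 3.23 for Sgca, 2.15 for Ncam1, 1.87 for Fbxo32 and 1.32 for Nes. The actin-related and matrix genes had 5.52 for Tagln, 3.75 for Acta2 and 1.64 for Hspg2. In WT labelled EV cells Acta2 had 318 and 219 CPM in DM against 1370 and 1450 CPM in GM, and Tagln had 7.41 and 5.85 CPM in DM against 174 and 148 CPM in GM.

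Interferon and presentation genes went both ways, with 2.95 for Ifit1 and 0.99 for Ifitm3, against -5.99 for Slfn2, -4.28 for Ly6c1, -3.40 for Mx1, -2.11 for H2-M3 and -1.76 for H2-Q4. Stress response genes had -2.75 for Ddit3, -2.41 for Chac1, -1.94 for Nupr1, -1.91 for Atf5 and -1.18 for Sars. Replication genes had 1.15 for Cdc6 and 1.04 for Rrm1. The remaining differences were -6.56 for Prl2c2, -2.53 for Styk1 and -1.65 for Txnip.

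The reads of Myod1, present in all 4 libraries labelled MYOD-/- and nearly absent from the 4 labelled WT EV, bear on each of these directions.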

How the results depend on the processing

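Of 181 tested genes named above, 146 were called between DM and GM. Of these, 119 kept the call under every alternative at that threshold in which they were tested. The other 27 lost it under at least 1, and no call changed sign. The 5 CPM filter tested 170 of the 181 genes, and the 4 libraries alone and the run without Zrsr1 tested 180 each. A gene left out there was not counted as a lost call. Between DM and GM 6470 genes were called. At a threshold of 0.01 there were 4253 calls (2235 higher, 2018 lower), and leaving out 1 library gave 4340 to 5844, where the lone library of its group is assumed to vary like the other groups. Fitting the 4 libraries alone gave 5328, the 5 CPM filter 5607, DESeq2 6746 and limma on log2(TPM + 1) 7072. These alternatives moved the median of all genes by at most 0.10. Falls outnumbered rises with the 4 libraries alone (2566 higher, 2762 lower), with the 5 CPM filter (2712 higher, 2895 lower) and without GM replicate 2 (1977 higher, 2363 lower). Of 30 lists, 16 had a count that moved by over 1.5 times under at least 1 alternative. The 387 genes whose response differed from WT EV became 994 with DESeq2, 1046 with limma and 56 at a threshold of 0.01, and 66 to 319 when 1 library was left out. Against MYOD-/- ov MUNC, limma called 1 gene. With the replicate number as a block, 7672 genes were called between DM and GM (4206 higher, 3466 lower) and 898 against WT EV; 15 of the named genes gained a call, regulators of myogenesis became 17 higher and 3 lower, sterol genes 10 higher, and matrix genes 22 higher. The labels do not say that a number marks a shared batch, and the numbers were not taken to pair the samples because not every pair of groups met the limit set for it: deviations of same-numbered libraries correlated at over 0.1 in 23 of 28 pairs of groups, from -0.0126 to 0.712, and at 0.249 for DM with GM here. Zrsr1 nevertheless took 1.49 to 13% of the counts in each replicate 2 of the 8 groups, and at most 0.0344% in each replicate 1. The cause of these shifts was not tested. At 2 libraries per group, differences of low genes and of 2-fold or less are the least certain.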
